A study of Mus musculus with 9 samples.

Results

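Neuronal nuclei of caffeine-treated Tg4-42 mice were compared with those of WT mice that drank tap water, to describe which genes remained or became different from WT under treatment. The comparison uses 6 of the 9 libraries of the series, chosen by their labels alone: 3 from APP transgenic mice labelled with caffeine and 3 labelled wildtype. The other 3 libraries, from vehicle-treated Tg4-42 mice, entered the same fit and are given beside the results. Tg4-42 mice are C57BL/6J mice that express human Aβ4-42 in neurons. The transgene is driven by the murine Thy1 promoter and carries the signal peptide of murine TRH, and the study kept the line homozygous. Caffeine was given at 300 mg/l in the drinking water from 2 months of age for 4 months, so that the mice were 6 months old. The labels name a treatment for the caffeine group only, and the tap water of the other groups is taken from the study's methods. RNA came from NeuN-sorted nuclei of frozen hippocampi, so that nuclear rather than total cellular RNA was measured. No caffeine-treated WT library was analysed here, and in a direct comparison with WT the genotype and the treatment cannot be told apart.

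Caffeine blocks adenosine receptors, which are coupled to cAMP signalling, and at higher concentrations it inhibits phosphodiesterases and opens ryanodine receptors of intracellular calcium stores. Aβ4-42 is an N-terminally truncated form of the amyloid peptide, and Tg4-42 mice are known for neuron loss in the CA1 field of the hippocampus without plaques. NeuN marks the nuclei of most neurons, so a hippocampal sort holds granule cells of the dentate gyrus, pyramidal cells of the CA fields and interneurons, and may retain some glial nuclei.

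Values are counts per 1000000 counts of the library (CPM), with library sizes scaled by TMM, and stand in the order of replicates 1, 2 and 3 of each group, and log2 fold changes are of caffeine-treated Tg4-42 over WT unless another contrast is named. The 6 libraries held 12498081 to 16376922 counts on exons, and at these totals 3 counts correspond to 0.19 to 0.235 CPM. A difference was called when edgeR's quasi-likelihood test gave an adjusted p under 0.05 over the 17361 tested genes. Summed levels of 10 pan-neuronal markers were 8564 to 8949 CPM in WT and 7063 to 8429 CPM in caffeine-treated mice, against 475 to 619.8 and 399 to 511 CPM for 12 astrocyte markers and 59.9 to 92.6 and 55.97 to 65.3 CPM for 12 microglia markers. The part of glial nuclei in the results was not tested. On the first principal component, which held 27.9% of the variance, caffeine-treated replicates 1, 2 and 3 lay at 11.5, 30.1 and 48.4, and the WT libraries at -8.58, -8.49 and -25.2. In each group, replicates 1 and 2 were sequenced on lane 6 and replicate 3 on lane 7.

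Between caffeine-treated Tg4-42 and WT mice, 72 of 17361 genes were called, which is 0.415% of those tested. Of these, 25 were higher (0.144%) and 47 were lower (0.271%) in the treated transgenic mice. The number depended on single libraries: it was 16 without caffeine-treated replicate 3 and 287 without caffeine-treated replicate 1, and it was 42, 23 and 28 without WT replicates 1, 2 and 3. In all 6 fits that left out a library, 15 of the 72 were called. With the sequencing lane in the model 42 genes were called. Of the same 17361 genes, DESeq2 called 207 higher and 361 lower, and limma-voom 35 higher and 90 lower. All 72 called genes had caffeine libraries that did not overlap with WT, as had 18.8% of all tested genes. The median log2 fold change of all tested genes was -0.01. For comparison, vehicle-treated Tg4-42 mice differed from the same 3 WT libraries in 17 genes (0.0979%) and lay apart from them without overlap in 6.73% of genes. Caffeine-treated and vehicle-treated Tg4-42 mice differed in 153 genes (0.881%). Both comparisons share the WT libraries, so the values of the 2 Tg4-42 groups are set side by side for most genes, and the test of caffeine against vehicle is given for some of them.

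**Figure D1:**
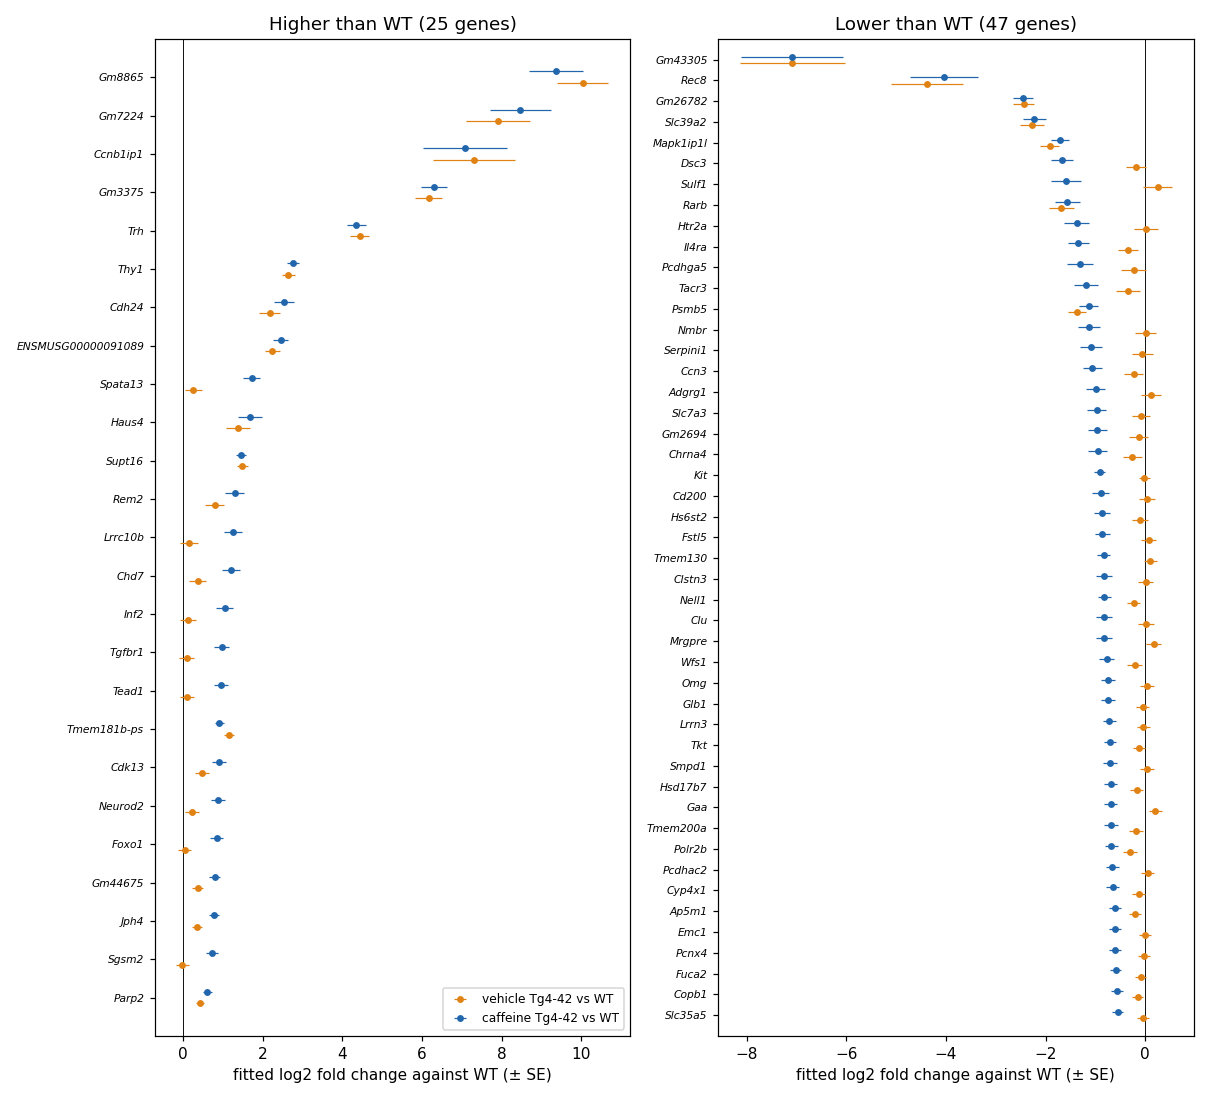
Fitted log2 fold changes against WT (horizontal axis, with SE) of the 25 genes called higher and the 47 called lower in caffeine-treated Tg4-42 mice, one row a gene, with the caffeine group in blue and the vehicle group in orange. The pseudogene Gm8865 (9.36 with caffeine, 10.03 with vehicle) and Trh (4.35 and 4.43) lie far from 0 in both groups, whereas Kit stands at -0.91 with caffeine and -0.01 with vehicle. Fitted values of genes with no counts in a group depend on the prior count.

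The genes that lend sequence to the transgene were examined first, as a check of the labels. Trh encodes the precursor of thyrotropin-releasing hormone, and its coding sequence starts with the signal peptide that the transgene carries. The first 72 coding bases of Trh on chromosome 6, from the reference transcript and with the start codon in capitals, are shown because reads from this stretch can come from either source.
Trh: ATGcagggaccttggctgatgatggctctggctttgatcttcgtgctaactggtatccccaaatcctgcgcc

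Trh was at 4.39, 2.08 and 1.81 CPM in WT, 64.7, 59.5 and 51.3 CPM in vehicle-treated Tg4-42 and 48, 57.7 and 59.7 CPM in caffeine-treated Tg4-42 mice. The transgenic libraries did not overlap with WT in either treatment group, and caffeine-treated mice exceeded WT (log2 fold change 4.35 ± 0.24 (SE), adjusted p = 8.16e-08). Thy1, a surface glycoprotein of neurons whose promoter drives the transgene, was at 82.1, 87.4 and 88.8 CPM in WT, 639, 516 and 461 CPM in vehicle-treated Tg4-42 and 509, 571 and 670.1 CPM in caffeine-treated Tg4-42 mice, again without overlap (log2 fold change 2.76 ± 0.15 (SE), adjusted p = 5.33e-08). Between caffeine and vehicle the difference was -0.08 (adjusted p = 0.862) for Trh and 0.12 (adjusted p = 0.734) for Thy1, neither past the test. All 6 transgenic libraries lay above the WT libraries in both genes.

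Differences from WT were frequent on chromosome 14. It held 20 of the 72 called genes (27.8%) but 527 of the 17361 tested genes (3.04%), and 3.8% of its tested genes were called. Between 47 and 56 Mb (GRCm38), 15 of 95 tested genes were called (15.8%), against 57 of 17266 elsewhere (0.33%). The bounds of this interval were set with earlier results of these data known.

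**Figure D2:**
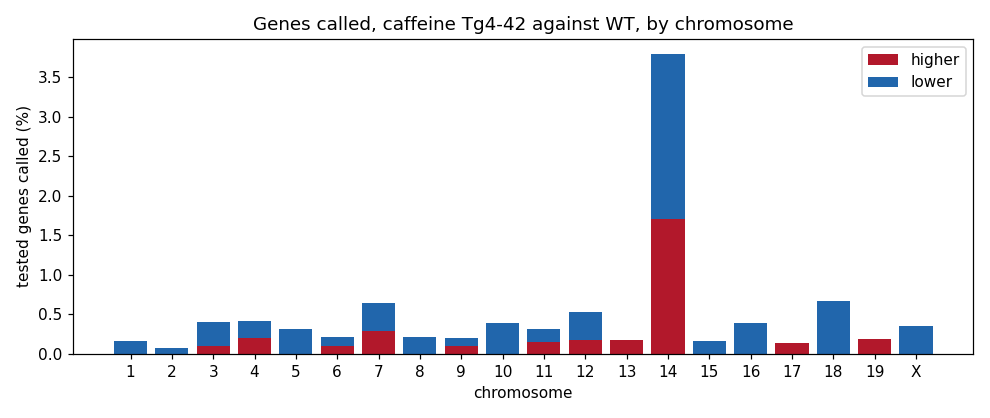
Share of the tested genes of each chromosome (vertical axis, in percent) that were called between caffeine-treated Tg4-42 and WT mice, split into higher (red) and lower (blue). Chromosome 14 stands at 3.8%, with 9 genes higher and 11 lower, and the next chromosome, 18, at 0.665%.

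In this interval, Supt16 (chr14:52160414-52197416), a subunit of the FACT histone chaperone, was at 31.9, 26.7 and 23.4 CPM in WT, 79.9, 75.1 and 74.8 CPM in vehicle-treated Tg4-42 and 81.9, 69.3 and 73.3 CPM in caffeine-treated Tg4-42 mice. Supt16 gave a log2 fold change of 1.46 ± 0.13 (SE, adjusted p = 2.34e-05). The levels of both transgenic groups lay above all WT libraries, and the difference between them was -0.03 (adjusted p = 0.925). Its annotation overlaps Rpgrip1 on the opposite strand, and the library kit does not mark strand, so reads of such partners cannot be told apart. Cdh24, a cadherin listed among the CA3 markers, was at 1.57, 1.45 and 1.55 CPM in WT, 7.14, 6.74 and 6.91 CPM in vehicle-treated Tg4-42 and 6.32, 9.33 and 10.9 CPM in caffeine-treated Tg4-42 mice. Cdh24 showed a log2 fold change of 2.53 ± 0.26 (SE, adjusted p = 8.44e-05). Haus4, a subunit of the microtubule-nucleating augmin complex, had a log2 fold change of 1.68 (adjusted p = 0.0257) with caffeine and 1.38 (adjusted p = 0.235) with vehicle. Rem2, a small GTPase that inhibits voltage-gated calcium channels, stood at 10.7, 16.2 and 12.4 CPM in WT and 23.96, 39.1 and 33.7 CPM in caffeine-treated Tg4-42 mice. Rem2 had a log2 fold change of 1.29 ± 0.24 (SE, adjusted p = 0.0333), and the vehicle group, at 20.02, 31.4 and 16.7 CPM, overlapped with caffeine and lay above WT. Jph4, a junctophilin that joins the endoplasmic reticulum to the plasma membrane, was at 75.1, 86.5 and 77.3 CPM in WT, 89.6, 117 and 94.9 CPM in vehicle-treated Tg4-42 and 129, 130.4 and 147 CPM in caffeine-treated Tg4-42 mice. Jph4 gave a log2 fold change of 0.77 ± 0.13 (SE, adjusted p = 0.015). The vehicle libraries of Jph4 also lay above every WT library (log2 fold change 0.34), and caffeine exceeded vehicle by 0.43 (adjusted p = 0.11). Parp2, a poly(ADP-ribose) polymerase of DNA repair, had the smallest log2 fold change of the 25 higher genes (log2 fold change 0.60 ± 0.11 (SE), adjusted p = 0.0283). The vehicle libraries of Parp2 also lay above every WT library (log2 fold change 0.42, adjusted p = 0.607). Caffeine exceeded vehicle in Parp2 by 0.18 (adjusted p = 0.436).

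In the same interval, Ccnb1ip1, a ubiquitin ligase required for meiotic crossovers, and the processed pseudogene Gm8865 had no counts in any WT library. Over the group, Gm8865 was at least 88.3-fold higher and Ccnb1ip1 at least 18.2-fold higher in caffeine-treated mice, taking 3 counts over the WT group as the floor. Gm8865 reached 5.15, 5.74 and 7.23 CPM with caffeine and 13.3, 8.73 and 6.99 CPM with vehicle, and Ccnb1ip1 reached 1.84, 1.38 and 0.461 CPM and 1.41, 1.48 and 1.45 CPM. The opposite was found for Gm43305, with 1.02, 1.33 and 1.36 CPM in WT and no count in any transgenic library, which makes it at least 17.1-fold lower with caffeine. Rec8, a meiotic cohesin subunit, was at 4.39, 2.72 and 1.75 CPM in WT, 0, 0.193 and 0.161 CPM in vehicle-treated Tg4-42 and 0.0735, 0.415 and 0 CPM in caffeine-treated Tg4-42 mice. Rec8 gave a log2 fold change of -4.05 ± 0.69 (SE, adjusted p = 0.0173). The antisense gene Gm26782 on the strand opposite Tep1 was at 25.7, 20.7 and 22.95 CPM in WT, 4.33, 4.17 and 4.26 CPM in vehicle-treated Tg4-42 and 3.31, 5.32 and 3.998 CPM in caffeine-treated Tg4-42 mice. Gm26782 showed a log2 fold change of -2.45 ± 0.21 (SE, adjusted p = 8.92e-06). Slc39a2, a zinc transporter, was also lower, at 17.3, 14.7 and 19.1 CPM in WT, 4.004, 4.17 and 2.41 CPM in vehicle-treated Tg4-42 and 3.38, 3.18 and 4.38 CPM in caffeine-treated Tg4-42 mice. Slc39a2 had a log2 fold change of -2.22 ± 0.24 (SE, adjusted p = 0.000131). Mapk1ip1l was lower as well (log2 fold change -1.71 ± 0.18 (SE), adjusted p = 0.000131), and its log2 fold change with vehicle was -1.92. Psmb5, a catalytic subunit of the proteasome, was at 24.01, 34.1 and 23.7 CPM in WT, 10.7, 8.98 and 12.1 CPM in vehicle-treated Tg4-42 and 13.2, 11.6 and 12.5 CPM in caffeine-treated Tg4-42 mice. Psmb5 gave a log2 fold change of -1.13 ± 0.18 (SE, adjusted p = 0.013). Of the 31 proteasome genes it was the member called by edgeR, DESeq2 and limma-voom, and the median of the list was -0.13. In each of these genes the transgenic libraries of both treatments lay on the same side of all WT libraries.

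Outside this interval, chromosome 14 carried Spata13, a guanine nucleotide exchange factor, at 8.002, 9.47 and 8.21 CPM in WT, 11.6, 12.4 and 6.67 CPM in vehicle-treated Tg4-42 and 27.9, 26.3 and 30.4 CPM in caffeine-treated Tg4-42 mice. Spata13 gave a log2 fold change of 1.72 ± 0.21 (SE, adjusted p = 0.000649). Here the vehicle group overlapped with WT, and caffeine exceeded vehicle by 1.46 (adjusted p = 0.0124). Rarb, the retinoic acid receptor beta, was lower in all transgenic libraries, at 8.002, 7.96 and 8.66 CPM in WT, 2.38, 3.34 and 1.85 CPM in vehicle-treated Tg4-42 and 2.87, 2.904 and 2.54 CPM in caffeine-treated Tg4-42 mice. Rarb showed a log2 fold change of -1.56 ± 0.25 (SE, adjusted p = 0.0111). Htr2a, Clu and Tkt also lie outside the interval and are described in later paragraphs. Ap5m1, inside the interval, was lower with caffeine (log2 fold change -0.61 ± 0.12 (SE), adjusted p = 0.0439). Its vehicle libraries overlapped with WT (log2 fold change -0.20), and caffeine differed from vehicle by -0.41 (adjusted p = 0.116).

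Some called features of other chromosomes are pseudogenes or lack a symbol in the reference, and reads of near-identical copies may be split among them. On chromosome 7, Gm7224 had no counts in WT and 4.26, 3.25 and 2.23 CPM with caffeine, at least 47.9-fold higher, and Gm3375 was at 0.471, 0.19 and 0.129 CPM in WT, 20.7, 14.4 and 21.1 CPM in vehicle-treated Tg4-42 and 23.2, 19.1 and 18.99 CPM in caffeine-treated Tg4-42 mice. Gm3375 gave a log2 fold change of 6.29 ± 0.33 (SE, adjusted p = 5.11e-08). The gene ENSMUSG00000091089, which did not match the annotation, was at 8.55, 10.3 and 14.1 CPM in WT, 52.2, 60 and 44.01 CPM in vehicle-treated Tg4-42 and 71.5, 51.2 and 57.6 CPM in caffeine-treated Tg4-42 mice. ENSMUSG00000091089 showed a log2 fold change of 2.45 ± 0.19 (SE, adjusted p = 5.03e-06). Tmem181b-ps was at 26.6, 26.02 and 29.5 CPM in WT, 62.2, 58.98 and 61.3 CPM in vehicle-treated Tg4-42 and 48.96, 52.9 and 52.05 CPM in caffeine-treated Tg4-42 mice. Tmem181b-ps had a log2 fold change of 0.90 ± 0.12 (SE, adjusted p = 0.00116). For these 4 features the vehicle group also lay above every WT library.

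**Figure D3:**
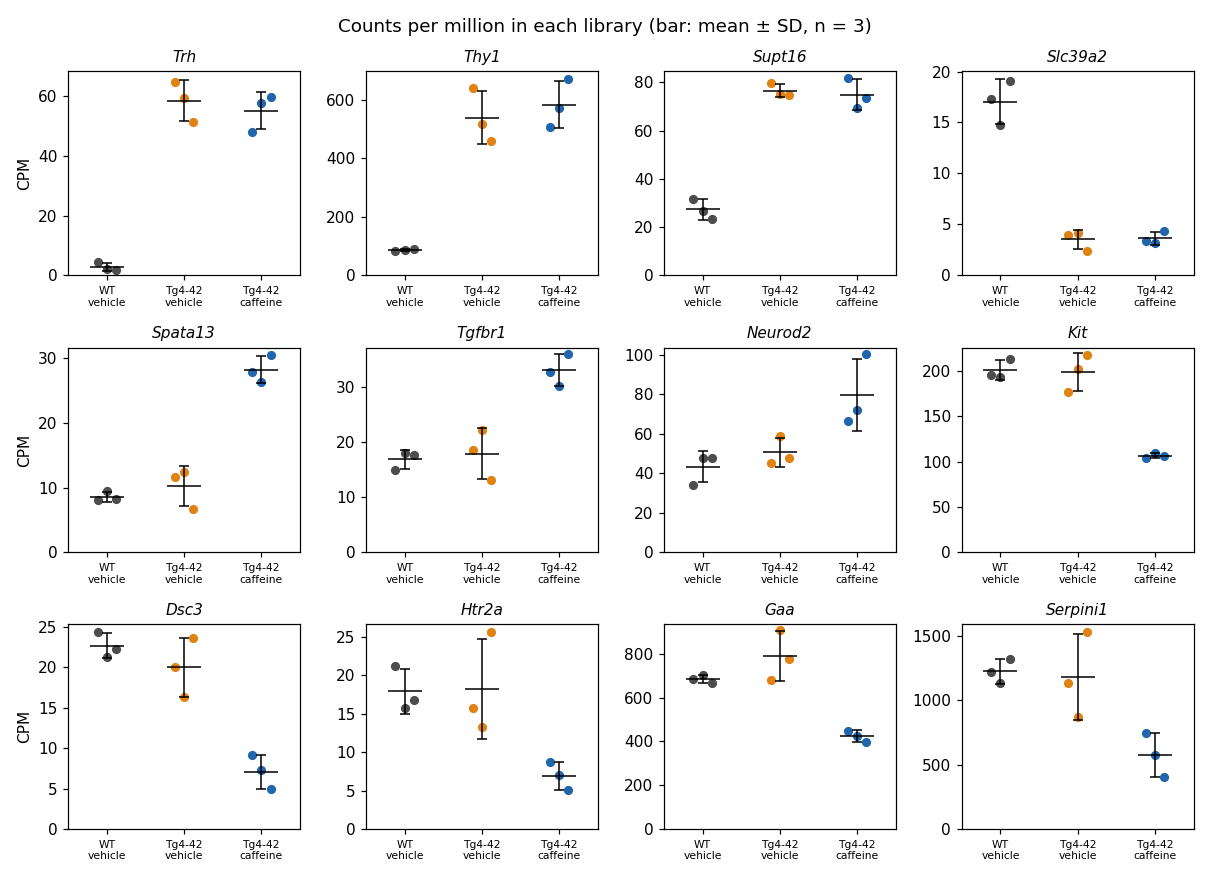
CPM (vertical axis, linear from 0) of 12 called genes in each library, with 3 points a group and a bar for the mean ± SD. Trh, Thy1 and Supt16 are high and Slc39a2 is low in both transgenic groups, whereas the caffeine libraries alone stand apart from the other 6 in Spata13, Tgfbr1, Neurod2, Kit, Dsc3, Htr2a, Gaa and Serpini1.

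Among the other genes higher than WT were regulators of transcription and of growth signalling. This grouping, and the groups of lower genes that follow, were made after the values were seen and describe the roles of single genes. Chd7, an ATP-dependent chromatin remodeller, was at 14.9, 23.2 and 22.9 CPM in WT, 25.5, 33.3 and 19.5 CPM in vehicle-treated Tg4-42 and 42.9, 38.3 and 59.6 CPM in caffeine-treated Tg4-42 mice. Chd7 gave a log2 fold change of 1.20 ± 0.22 (SE, adjusted p = 0.0297). Neurod2, a basic helix-loop-helix factor of excitatory neurons, was at 34.2, 47.8 and 47.8 CPM in WT, 45.2, 58.98 and 47.9 CPM in vehicle-treated Tg4-42 and 66.4, 71.97 and 100.3 CPM in caffeine-treated Tg4-42 mice. Neurod2 showed a log2 fold change of 0.88 ± 0.17 (SE, adjusted p = 0.0408). The caffeine libraries lay above all WT libraries in both genes, while the difference between caffeine and vehicle was 0.84 (adjusted p = 0.086) and 0.65 (adjusted p = 0.088). Tead1, the DNA-binding partner of the Hippo pathway, was at 19.3, 15.5 and 15.5 CPM in WT, 17.97, 20.5 and 15.3 CPM in vehicle-treated Tg4-42 and 26.2, 34.5 and 37.1 CPM in caffeine-treated Tg4-42 mice. Tead1 had a log2 fold change of 0.96 ± 0.17 (SE, adjusted p = 0.0279), and exceeded vehicle by 0.86 (adjusted p = 0.0399). Foxo1, a forkhead factor under control of insulin signalling, reached a log2 fold change of 0.85 (adjusted p = 0.0297) with caffeine and 0.04 with vehicle. Cdk13, a kinase of the RNA polymerase II tail, was also higher (log2 fold change 0.90 ± 0.17 (SE), adjusted p = 0.0297), with the vehicle group at 0.47.

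Tgfbr1, the type I receptor for TGF-beta, was at 14.9, 18.1 and 17.7 CPM in WT, 18.5, 22.2 and 13.1 CPM in vehicle-treated Tg4-42 and 32.9, 30.3 and 36.1 CPM in caffeine-treated Tg4-42 mice. Tgfbr1 gave a log2 fold change of 0.97 ± 0.18 (SE, adjusted p = 0.0297). No caffeine library overlapped with WT or vehicle, and caffeine exceeded vehicle by 0.88 (adjusted p = 0.0399). Inf2, a formin that assembles actin filaments, was at 10.1, 9.22 and 9.96 CPM in WT, 11.8, 10.8 and 9.32 CPM in vehicle-treated Tg4-42 and 21.8, 14.1 and 24.4 CPM in caffeine-treated Tg4-42 mice. Inf2 showed a log2 fold change of 1.04 ± 0.20 (SE, adjusted p = 0.0383). Lrrc10b was at 8.94, 14.1 and 10.3 CPM in WT, 11.9, 15.5 and 9.48 CPM in vehicle-treated Tg4-42 and 19.7, 28.97 and 31.1 CPM in caffeine-treated Tg4-42 mice. Lrrc10b had a log2 fold change of 1.26 ± 0.23 (SE, adjusted p = 0.0279). Sgsm2, a GTPase-activating protein for Rab proteins, was at 53.4, 54.01 and 58.1 CPM in WT, 47.4, 66.7 and 49.1 CPM in vehicle-treated Tg4-42 and 77.2, 89.3 and 108 CPM in caffeine-treated Tg4-42 mice. Sgsm2 gave a log2 fold change of 0.73 ± 0.15 (SE, adjusted p = 0.0492), and the vehicle group stood at -0.02 relative to WT. Gm44675, annotated inside Dlg2 on the same strand, was also called (log2 fold change 0.79 ± 0.14 (SE), adjusted p = 0.0279) and may hold reads of that gene.

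The genes lower than WT included receptors of transmitters, peptides and growth factors. Kit, the receptor of stem cell factor, was at 196, 193 and 214 CPM in WT, 177, 203 and 218 CPM in vehicle-treated Tg4-42 and 104, 109.6 and 107 CPM in caffeine-treated Tg4-42 mice. Kit gave a log2 fold change of -0.91 ± 0.12 (SE, adjusted p = 0.0011). The caffeine libraries lay within 104 to 109.6 CPM, below the other 6, and caffeine differed from vehicle by -0.90 (adjusted p = 0.012). It was called in each of the 6 fits that left out a library. Kit was a member of a list of 16 interneuron markers, of which 14 were below 0 (median -0.22) and Kit was the member called by edgeR. In this list, DESeq2 called 0 higher and 2 lower and limma-voom 0 higher and 1 lower. The interneuron markers summed to 1781, 1788 and 1954 CPM in WT, 1919, 1808 and 2443 CPM with vehicle and 1354, 1675 and 1449 CPM with caffeine, so that the caffeine libraries lay below all others. In bulk nuclei, fewer cells of a type and less RNA per cell cannot be told apart. Htr2a, the serotonin 2A receptor on chromosome 14, was at 21.3, 15.8 and 16.7 CPM in WT, 15.8, 13.3 and 25.6 CPM in vehicle-treated Tg4-42 and 8.67, 6.98 and 5.07 CPM in caffeine-treated Tg4-42 mice. Htr2a showed a log2 fold change of -1.37 ± 0.25 (SE, adjusted p = 0.0297), and the caffeine libraries lay below all others. Tacr3, the neurokinin B receptor, was at 12.1, 15.7 and 14.1 CPM in WT, 10.8, 12.4 and 9.64 CPM in vehicle-treated Tg4-42 and 4.41, 8.99 and 4.92 CPM in caffeine-treated Tg4-42 mice. Tacr3 had a log2 fold change of -1.19 ± 0.25 (SE, adjusted p = 0.0494). The neuromedin B receptor Nmbr was at 25.1, 20.2 and 12.8 CPM in WT, 20.6, 17.3 and 20.7 CPM in vehicle-treated Tg4-42 and 8.53, 8.92 and 9.15 CPM in caffeine-treated Tg4-42 mice. Nmbr gave a log2 fold change of -1.12 ± 0.22 (SE, adjusted p = 0.0333). Chrna4, the alpha 4 subunit of nicotinic acetylcholine receptors, was at 46.3, 43.2 and 63.04 CPM in WT, 41.3, 34.97 and 51.8 CPM in vehicle-treated Tg4-42 and 33.5, 23.3 and 21.9 CPM in caffeine-treated Tg4-42 mice. Chrna4 showed a log2 fold change of -0.95 ± 0.20 (SE, adjusted p = 0.0482). Il4ra, a subunit of the interleukin-4 receptor, was at 10.4, 10.5 and 10.9 CPM in WT, 8.01, 6.74 and 10.4 CPM in vehicle-treated Tg4-42 and 4.705, 3.73 and 4.15 CPM in caffeine-treated Tg4-42 mice. Il4ra had a log2 fold change of -1.34 ± 0.22 (SE, adjusted p = 0.0122). The adhesion G protein-coupled receptor Adgrg1 was also lower (log2 fold change -0.995 ± 0.20 (SE), adjusted p = 0.0416), as was the orphan receptor Mrgpre (log2 fold change -0.82 ± 0.16 (SE), adjusted p = 0.0407). The vehicle libraries of Il4ra also lay below every WT library, and caffeine differed from vehicle by -0.99 (adjusted p = 0.047) in Il4ra. In vehicle-treated mice, the log2 fold changes of these 8 genes lay between -0.35 and 0.17.

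Secreted proteins and a pair of enzymes that modify heparan sulfate were also among the lower genes. Serpini1 encodes neuroserpin, an inhibitor of tissue plasminogen activator, and was at 1217, 1132 and 1322 CPM in WT, 1134, 873 and 1531 CPM in vehicle-treated Tg4-42 and 742, 578 and 404 CPM in caffeine-treated Tg4-42 mice. Serpini1 gave a log2 fold change of -1.09 ± 0.22 (SE, adjusted p = 0.0492). Clu, the extracellular chaperone clusterin on chromosome 14, was at 341, 366 and 428 CPM in WT, 369, 341 and 439 CPM in vehicle-treated Tg4-42 and 262, 203 and 177 CPM in caffeine-treated Tg4-42 mice. Clu showed a log2 fold change of -0.82 ± 0.16 (SE, adjusted p = 0.0297). Clu is also abundant in astrocytes, and the 12 astrocyte markers had a median of -0.59, with 11 below 0. Of these, 1 of 12 members were higher and 6 lower at an unadjusted p under 0.05, with edgeR calling 0, DESeq2 3 and limma-voom 0. Over all 17361 tested genes, 6.78% were higher and 8.65% lower at that unadjusted p, and DESeq2 called 361 lower. The astrocyte markers summed to 475, 483 and 619.8 CPM in WT and 511, 424 and 399 CPM with caffeine. Their part in the result was not tested. Ccn3, a matricellular protein listed among the CA1 markers, was at 335, 327 and 298 CPM in WT, 256, 234 and 328 CPM in vehicle-treated Tg4-42 and 142, 206 and 113 CPM in caffeine-treated Tg4-42 mice. Ccn3 had a log2 fold change of -1.06 ± 0.19 (SE, adjusted p = 0.0274). Nell1 (log2 fold change -0.82 ± 0.13 (SE), adjusted p = 0.011) and Fstl5 (log2 fold change -0.86 ± 0.15 (SE), adjusted p = 0.0247) were lower as well. Sulf1, which removes 6-O-sulfate groups from heparan sulfate, was at 14.2, 12.7 and 19.6 CPM in WT, 18.8, 12 and 24.8 CPM in vehicle-treated Tg4-42 and 6.03, 6.36 and 2.998 CPM in caffeine-treated Tg4-42 mice. Sulf1 gave a log2 fold change of -1.59 ± 0.30 (SE, adjusted p = 0.0392). Hs6st2, which adds them, was at 117, 117 and 112 CPM in WT, 93.8, 98.1 and 132 CPM in vehicle-treated Tg4-42 and 68.95, 72.3 and 48.3 CPM in caffeine-treated Tg4-42 mice. Hs6st2 showed a log2 fold change of -0.87 ± 0.16 (SE, adjusted p = 0.0279). In all 7 genes the caffeine libraries lay below every WT library, and vehicle-treated mice had log2 fold changes between -0.23 and 0.25.

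Adhesion and surface proteins were lower too, and the cell types that their RNA came from were not tested. Dsc3, the desmosomal cadherin desmocollin 3, was at 24.3, 21.3 and 22.3 CPM in WT, 20.02, 16.3 and 23.6 CPM in vehicle-treated Tg4-42 and 9.12, 7.26 and 4.92 CPM in caffeine-treated Tg4-42 mice. Dsc3 gave a log2 fold change of -1.67 ± 0.21 (SE, adjusted p = 0.0011), and was called without each of the 6 libraries. None of its caffeine libraries overlapped with WT or vehicle. Cd200, a ligand for an inhibitory receptor of microglia, was at 391, 425 and 428 CPM in WT, 441, 346 and 499 CPM in vehicle-treated Tg4-42 and 248, 252 and 170.2 CPM in caffeine-treated Tg4-42 mice. Cd200 showed a log2 fold change of -0.89 ± 0.16 (SE, adjusted p = 0.0279). Omg, a ligand of the Nogo receptor whose gene lies in an intron of Nf1, was at 422, 433 and 462 CPM in WT, 441, 387 and 525 CPM in vehicle-treated Tg4-42 and 308, 254 and 225 CPM in caffeine-treated Tg4-42 mice. Omg had a log2 fold change of -0.74 ± 0.14 (SE, adjusted p = 0.0356). Clstn3, the synaptic organizer calsyntenin 3, was at 646, 582 and 776 CPM in WT, 639.6, 634 and 745 CPM in vehicle-treated Tg4-42 and 462, 338 and 332 CPM in caffeine-treated Tg4-42 mice. Clstn3 gave a log2 fold change of -0.82 ± 0.16 (SE, adjusted p = 0.0297). Lrrn3 (log2 fold change -0.72 ± 0.13 (SE), adjusted p = 0.0257) and Tmem130 (log2 fold change -0.83 ± 0.13 (SE), adjusted p = 0.00932) are further membrane proteins in this group. Pcdhga5 (log2 fold change -1.30 ± 0.26 (SE), adjusted p = 0.0408) and Pcdhac2 (log2 fold change -0.66 ± 0.13 (SE), adjusted p = 0.0356) belong to the clustered protocadherins, whose members share exons, so that the counts of single members are uncertain.

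Enzymes of the lysosome and proteins of the secretory pathway made up a further group. Gaa, the lysosomal acid alpha-glucosidase, was at 684, 703 and 668 CPM in WT, 682, 908 and 776 CPM in vehicle-treated Tg4-42 and 449, 426 and 398 CPM in caffeine-treated Tg4-42 mice. Gaa gave a log2 fold change of -0.69 ± 0.13 (SE, adjusted p = 0.0297). Smpd1, the acid sphingomyelinase, was at 238, 274 and 262 CPM in WT, 256, 245 and 295 CPM in vehicle-treated Tg4-42 and 187, 146 and 142 CPM in caffeine-treated Tg4-42 mice. Smpd1 showed a log2 fold change of -0.70 ± 0.13 (SE, adjusted p = 0.0297). Glb1, the lysosomal beta-galactosidase, was at 48.01, 58.7 and 51.9 CPM in WT, 53.1, 44.9 and 55.5 CPM in vehicle-treated Tg4-42 and 33.5, 33.6 and 27.8 CPM in caffeine-treated Tg4-42 mice. Glb1 had a log2 fold change of -0.74 ± 0.14 (SE, adjusted p = 0.0285). The fucosidase Fuca2 was also lower (log2 fold change -0.59 ± 0.12 (SE), adjusted p = 0.0366). In these 4 genes, all caffeine libraries lay below WT and vehicle, and the log2 difference of caffeine from vehicle was -0.89 (adjusted p = 0.0124) for Gaa and -0.50 (adjusted p = 0.0532) for Fuca2. Emc1, a subunit of the complex that inserts proteins into the membrane of the endoplasmic reticulum (ER), was at 262, 252 and 259 CPM in WT, 242, 262 and 269.99 CPM in vehicle-treated Tg4-42 and 198, 151 and 161 CPM in caffeine-treated Tg4-42 mice. Emc1 gave a log2 fold change of -0.60 ± 0.12 (SE, adjusted p = 0.0482). Copb1, the beta subunit of the COPI vesicle coat, was at 180.1, 199 and 174 CPM in WT, 162, 167 and 171 CPM in vehicle-treated Tg4-42 and 135, 117 and 122.7 CPM in caffeine-treated Tg4-42 mice. Copb1 showed a log2 fold change of -0.56 ± 0.11 (SE, adjusted p = 0.0408). Slc35a5, of the nucleotide sugar transporters, was at 147, 160.2 and 147 CPM in WT, 149, 139 and 153 CPM in vehicle-treated Tg4-42 and 111, 106 and 92.3 CPM in caffeine-treated Tg4-42 mice. Slc35a5 had a log2 fold change of -0.55 ± 0.11 (SE, adjusted p = 0.0492). Wfs1, a membrane protein of the ER and a CA1 marker, was at 153, 203 and 163 CPM in WT, 142, 151 and 157 CPM in vehicle-treated Tg4-42 and 128, 90.4 and 87.2 CPM in caffeine-treated Tg4-42 mice. Wfs1 gave a log2 fold change of -0.77 ± 0.15 (SE, adjusted p = 0.0408).

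The remaining lower genes have diverse roles. Tkt, the transketolase of the pentose phosphate pathway, was at 129.8, 139 and 115 CPM in WT, 119.6, 112 and 122.9 CPM in vehicle-treated Tg4-42 and 85.8, 77.3 and 70.8 CPM in caffeine-treated Tg4-42 mice. Tkt gave a log2 fold change of -0.71 ± 0.12 (SE, adjusted p = 0.0166). Hsd17b7, a reductase of cholesterol synthesis, was at 34.2, 35.9 and 36.1 CPM in WT, 30.7, 31.7 and 31.96 CPM in vehicle-treated Tg4-42 and 24.99, 20.9 and 19.9 CPM in caffeine-treated Tg4-42 mice. Hsd17b7 showed a log2 fold change of -0.69 ± 0.13 (SE, adjusted p = 0.0362). Polr2b, the second largest subunit of RNA polymerase II, was at 96.3, 105 and 88.1 CPM in WT, 80.2, 75.98 and 79.1 CPM in vehicle-treated Tg4-42 and 71.6, 61.1 and 48.7 CPM in caffeine-treated Tg4-42 mice. Polr2b had a log2 fold change of -0.67 ± 0.14 (SE, adjusted p = 0.046). In Hsd17b7 and Polr2b, and likewise in Copb1, the vehicle libraries also lay below every WT library. The log2 difference of caffeine from vehicle was -0.52 (adjusted p = 0.0802) in Hsd17b7, -0.37 (adjusted p = 0.184) in Polr2b and -0.41 (adjusted p = 0.0896) in Copb1. Slc7a3, a transporter of cationic amino acids, was at 48.8, 49.1 and 34.6 CPM in WT, 33.7, 40.3 and 50.4 CPM in vehicle-treated Tg4-42 and 22.7, 26.1 and 18.5 CPM in caffeine-treated Tg4-42 mice. Slc7a3 gave a log2 fold change of -0.97 ± 0.18 (SE, adjusted p = 0.0297). Cyp4x1, Ap5m1, Pcnx4, Tmem200a and the noncoding gene Gm2694 had log2 fold changes between -0.96 and -0.60, with adjusted p-values of 0.042 to 0.0494.

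Genes that the study discusses were compared next, whatever their test gave. The study names Dsp, Prox1 and Bcl11b as raised by caffeine. For Dsp it gives caffeine against vehicle in Tg4-42 mice as the comparison, and it also stained the protein. The values against WT that follow are a different comparison and do not test those statements. Ide, the insulin-degrading enzyme, which also cleaves Aβ, was at 98.7, 64.9 and 121 CPM in WT, 235, 247 and 147 CPM in vehicle-treated Tg4-42 and 122, 125 and 122 CPM in caffeine-treated Tg4-42 mice. Both transgenic groups lay above all WT libraries, and the log2 fold change with caffeine was 0.38 (adjusted p = 0.424) against WT and -0.77 (adjusted p = 0.106) against vehicle. Vehicle-treated mice differed from WT in Ide by 1.15 (adjusted p = 0.127). Prox1, the transcription factor of dentate granule cells, was at 83.4, 88.6 and 65.6 CPM in WT, 95.9, 93.8 and 47.9 CPM in vehicle-treated Tg4-42 and 157, 113 and 183 CPM in caffeine-treated Tg4-42 mice. Prox1 gave a log2 fold change of 0.93 ± 0.25 (SE, adjusted p = 0.122). Bcl11b, a zinc finger factor of granule cell development, was at 57.3, 66.6 and 48.7 CPM in WT, 62.99, 64.4 and 48.4 CPM in vehicle-treated Tg4-42 and 90.8, 83.4 and 122 CPM in caffeine-treated Tg4-42 mice. Bcl11b showed a log2 fold change of 0.78 ± 0.16 (SE, adjusted p = 0.0526), just outside the threshold, and its difference from vehicle was 0.75 (adjusted p = 0.0469). Dsp, the desmosomal protein desmoplakin, was at 19.2, 18.9 and 14.6 CPM in WT, 17.1, 10.9 and 5.62 CPM in vehicle-treated Tg4-42 and 46.02, 16.7 and 43.98 CPM in caffeine-treated Tg4-42 mice. Dsp had a log2 fold change of 1.01 ± 0.43 (SE, adjusted p = 0.301), and caffeine-treated replicate 2 overlapped with WT. Dcx, the microtubule protein of immature neurons, was at 190.5, 127 and 186 CPM in WT, 205, 159.8 and 192 CPM in vehicle-treated Tg4-42 and 141, 157 and 97.9 CPM in caffeine-treated Tg4-42 mice. Dcx gave a log2 fold change of -0.35 ± 0.18 (SE, adjusted p = 0.382). App, the precursor of Aβ in the mouse genome, was at 1020.4, 1186 and 1323 CPM in WT, 1074, 1202 and 1139 CPM in vehicle-treated Tg4-42 and 1026, 909.9 and 876 CPM in caffeine-treated Tg4-42 mice. App showed a log2 fold change of -0.33 ± 0.13 (SE, adjusted p = 0.258). With edgeR 0 of these 6 genes were called against WT, 3 being higher and 1 lower at an unadjusted p under 0.05, whereas DESeq2 called 2 higher, Prox1 and Bcl11b, and limma-voom called Bcl11b higher. Between caffeine and vehicle, edgeR called 1 of the 6 genes higher, Bcl11b, and 0 lower. At an unadjusted p under 0.05, 3 were higher and 2 lower in that comparison. The study tested its comparisons with DESeq2. No DESeq2 values of caffeine against vehicle are given here, so these edgeR counts do not test its statements.

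Lists of cell type markers and pathway genes were then described by their counts. Over all tested genes, 51.5% of the log2 fold changes were below 0, and at an unadjusted p under 0.05 there were 6.78% higher and 8.65% lower genes. The calls over all 17361 genes were 25 higher and 47 lower with edgeR, 207 and 361 with DESeq2 and 35 and 90 with limma-voom. The calls within a list are to be read beside these, since DESeq2 called many more genes of any kind. The 14 dentate granule cell markers were all above 0 (median 0.60), and 8 of 14 members were higher and 0 lower at an unadjusted p under 0.05, with edgeR calling 0, DESeq2 5 and limma-voom 0. Summed, they came to 980.3, 1248 and 969 CPM in WT, 1201, 1263 and 829 CPM with vehicle and 1503, 1466 and 1760.0 CPM with caffeine, so that the caffeine libraries lay above all others. Rfx3, a ciliogenic transcription factor and the member with the highest mean count, was at 268, 251 and 197 CPM in WT, 347, 281 and 185 CPM in vehicle-treated Tg4-42 and 341, 337 and 373 CPM in caffeine-treated Tg4-42 mice. Rfx3 gave a log2 fold change of 0.56 ± 0.19 (SE, adjusted p = 0.171). Plk5, a polo-like kinase of the brain, had the largest difference of the list (log2 fold change 1.21 ± 0.25 (SE), adjusted p = 0.0718) and was chosen after its value was seen. The 10 CA1 markers had a median of -0.44, against -0.13 with vehicle, with Ccn3 and Wfs1 called lower by edgeR. In the CA1 list 0 of 10 members were higher and 4 lower at an unadjusted p under 0.05. DESeq2 called 0 higher and 3 lower and limma-voom 0 higher and 2 lower. The CA1 sums of caffeine and WT overlapped, with 1263, 1357 and 963 CPM in WT, 971, 1078 and 1182 CPM with vehicle and 678, 969 and 699 CPM with caffeine. Dcn, a proteoglycan, spread over 8.31, 197 and 38.1 CPM within the caffeine group and was chosen after its values were seen. The 12 CA3 markers had a median of 0.25, with Cdh24, on chromosome 14, called higher by edgeR, while DESeq2 called 1 higher and 1 lower and limma-voom 1 higher and 1 lower. Their sums ran against the median, at 1224, 1359 and 1391 CPM in WT, 1302, 1250.0 and 1460.0 CPM with vehicle and 1110.0, 989 and 932 CPM with caffeine, without overlap. Dkk3, the CA3 marker with the highest level and chosen after its values were seen, was at 757, 887 and 903 CPM in WT, 798, 763 and 939 CPM in vehicle-treated Tg4-42 and 648, 438 and 439.9 CPM in caffeine-treated Tg4-42 mice. Dkk3 showed a log2 fold change of -0.74 ± 0.16 (SE, adjusted p = 0.0551). Median values were -0.29 for 14 markers of subiculum and neocortex, -0.25 for 14 tested of the oligodendrocyte lineage and -0.37 for 11 tested of microglia. Of the subiculum and neocortex list 0 of 14 members were higher and 2 lower at an unadjusted p under 0.05, with edgeR calling 0, DESeq2 0 and limma-voom 0. Of the oligodendrocyte list 0 of 14 members were higher and 1 lower at an unadjusted p under 0.05, with edgeR calling 0, DESeq2 0 and limma-voom 0. Of the microglia list 0 of 11 members were higher and 4 lower at an unadjusted p under 0.05, with edgeR calling 0, DESeq2 0 and limma-voom 0.

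**Figure D4:**
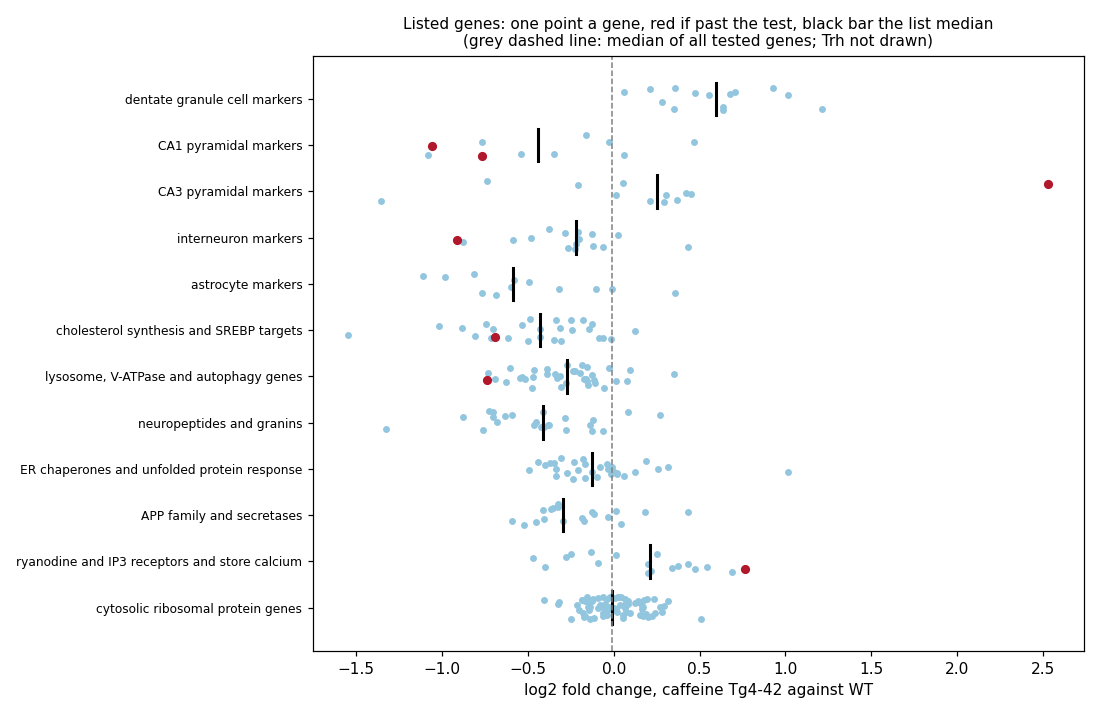
Log2 fold change of caffeine-treated Tg4-42 over WT (horizontal axis) for the tested members of 12 lists, one point a gene, red if past the test, with the list's median as a black bar and the median of all tested genes as a dashed line (-0.01). Trh, the only neuropeptide list member called by edgeR, is not drawn but is included in that list's median. The dentate markers lie to the right (median 0.60), the cholesterol genes to the left (median -0.43) and the ribosomal protein genes around 0 (median -0.01).

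Lower values prevailed in the lists of cholesterol synthesis, lysosome and neuropeptides, and also in several of the lists above. The share below 0 was 96.3% for cholesterol, 89.2% for lysosome and 88% for neuropeptides. It was 92.9% for the subiculum and oligodendrocyte lists, 91.7% for astrocyte and 87.5% for interneuron markers. The dentate list had 0% and the CA3 list 25% below 0. Of the 27 genes of cholesterol synthesis and its SREBP control, 26 were below 0 (median -0.43), 16 lower at an unadjusted p under 0.05, and edgeR called Hsd17b7 lower. In the cholesterol list, DESeq2 called 0 higher and 10 lower and limma-voom 0 higher and 4 lower. The members that follow in this paragraph were chosen after their values were seen. Sqle, the squalene epoxidase, differed by -0.70 (adjusted p = 0.0642), and the regulator Srebf2 by -0.25 (adjusted p = 0.39). Of the 37 genes of the lysosome, the V-ATPase and autophagy, 33 were below 0 (median -0.27), 17 lower at an unadjusted p under 0.05, and edgeR called Glb1 lower. In the lysosome list, DESeq2 called 0 higher and 9 lower and limma-voom 0 higher and 6 lower. Ctsd, the aspartic protease cathepsin D, was at 262, 323 and 286 CPM in WT, 285, 258 and 310.1 CPM in vehicle-treated Tg4-42 and 213, 191 and 168 CPM in caffeine-treated Tg4-42 mice. Ctsd gave a log2 fold change of -0.61 ± 0.13 (SE, adjusted p = 0.055). The V-ATPase accessory proteins Atp6ap2 (-0.69, adjusted p = 0.0539) and Atp6ap1 (-0.52, adjusted p = 0.0843) were near it, while Npc1, the cholesterol exporter of lysosomes, was at 0.09 (adjusted p = 0.741). Of the 25 tested neuropeptides, granins and their processing enzymes, 22 were below 0 (median -0.41), 10 lower at an unadjusted p under 0.05, and the only member called by edgeR, Trh, was higher and lends its signal peptide to the transgene. In the neuropeptide list, DESeq2 called 1 higher and 2 lower and limma-voom 1 higher and 0 lower. Scg3, a granin of dense-core vesicles, was at 133, 162 and 203 CPM in WT, 165, 151 and 201 CPM in vehicle-treated Tg4-42 and 117, 111 and 82.3 CPM in caffeine-treated Tg4-42 mice. Scg3 showed a log2 fold change of -0.68 ± 0.17 (SE, adjusted p = 0.0844). Chgb, chromogranin B, was at 707, 914 and 1027 CPM in WT, 1011, 841 and 1003 CPM in vehicle-treated Tg4-42 and 830.2, 588 and 614 CPM in caffeine-treated Tg4-42 mice. Chgb had a log2 fold change of -0.38 ± 0.17 (SE, adjusted p = 0.283).

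Like the lists of cholesterol synthesis, lysosome and neuropeptides, other lists held few or no genes called by edgeR. The 31 ER chaperones and genes of the unfolded protein response had a median of -0.12, and 1 of 31 members were higher and 6 lower at an unadjusted p under 0.05, with edgeR calling 0, DESeq2 2 and limma-voom 0. Hspa5, the chaperone BiP, was at 739, 944 and 1208 CPM in WT, 1348, 1383 and 1417 CPM in vehicle-treated Tg4-42 and 831, 727 and 574 CPM in caffeine-treated Tg4-42 mice. Hspa5 gave a log2 fold change of -0.44 ± 0.17 (SE, adjusted p = 0.241). Against vehicle the difference of Hspa5 was -0.96 (adjusted p = 0.0385). The 36 tested genes of ER translocation and the secretory coats had a median of -0.13, with Copb1 called by edgeR. In the secretory list, DESeq2 called 0 higher and 2 lower and limma-voom 0 higher and 1 lower. Of the 19 genes of the APP family and the secretases, 15 were below 0 (median -0.30). Of this list 0 of 19 members were higher and 9 lower at an unadjusted p under 0.05, with edgeR calling 0, DESeq2 1 and limma-voom 1. The 79 tested ribosomal protein genes had a median of -0.01 and the 103 tested genes of synaptic families had a median of -0.12. Of the ribosomal genes 0 of 79 members were higher and 0 lower at an unadjusted p under 0.05, with edgeR calling 0, DESeq2 0 and limma-voom 0. Of the synaptic families 10 of 103 members were higher and 22 lower at an unadjusted p under 0.05, with edgeR calling 0, DESeq2 11 and limma-voom 3. Sulf1 was the member called by edgeR among the 35 tested matrix genes (median -0.03). In the matrix list, DESeq2 called 0 higher and 4 lower and limma-voom 0 higher and 3 lower.

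Targets of caffeine were also examined. Of 19 genes of adenosine receptors and adenosine turnover, 14 were tested (median -0.14), and 2 of 14 members were higher and 2 lower at an unadjusted p under 0.05, with edgeR calling 0, DESeq2 1 and limma-voom 1. The receptor genes Adora2a, Adora2b and Adora3 did not pass the filter on low counts. Ahcyl2, a relative of S-adenosylhomocysteine hydrolase and the member with the highest mean count, was at 328, 391 and 339.7 CPM in WT, 443, 428 and 286 CPM in vehicle-treated Tg4-42 and 571, 544 and 711 CPM in caffeine-treated Tg4-42 mice. Ahcyl2 gave a log2 fold change of 0.79 ± 0.17 (SE, adjusted p = 0.0509). Adora1, the A1 receptor and a main neuronal target of caffeine, was at 203, 286 and 286 CPM in WT, 269, 255 and 283 CPM in vehicle-treated Tg4-42 and 259, 210.3 and 232 CPM in caffeine-treated Tg4-42 mice. Adora1 showed a log2 fold change of -0.14 ± 0.14 (SE, adjusted p = 0.662) and was chosen for its role. The 35 cyclases, phosphodiesterases and kinase A subunits had a median of 0.02, and 5 of 35 members were higher and 4 lower at an unadjusted p under 0.05, with edgeR calling 0, DESeq2 3 and limma-voom 0. Prkar1a, a regulatory subunit of kinase A, differed by -0.15 (adjusted p = 0.651). Among 18 tested genes of ryanodine and IP3 receptors and store calcium (median 0.21), Jph4, on chromosome 14, was called by edgeR. Its vehicle libraries also lay above every WT library, and its difference between caffeine and vehicle was not past the test (0.43, adjusted p = 0.11). In the calcium list, DESeq2 called 2 higher and 1 lower and limma-voom 1 higher and 0 lower. The 22 immediate early genes had a median of -0.29, and 2 of 22 members were higher and 0 lower at an unadjusted p under 0.05, with edgeR calling 0, DESeq2 1 and limma-voom 0. Their median was -0.26 for vehicle against WT and -0.12 for caffeine against vehicle. Against WT, 86.4% of them were below 0 with caffeine and likewise with vehicle. Arc, a synaptic regulator induced by activity, spread over 344, 109 and 105 CPM within the caffeine group. Of 11 markers of progenitors and immature neurons, 4 did not pass the filter on low counts. The 7 tested markers had a median of -0.13, and 0 of 7 members were higher and 0 lower at an unadjusted p under 0.05, with edgeR calling 0, DESeq2 0 and limma-voom 0. The nuclei were sorted for NeuN, and the number of DCX-positive cells, which the study counted in sections, was not measured here.

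Promoters were searched for the letters of elements named for cAMP, lysosomal, sterol and ER stress regulation and for the CCAAT box. The search covered both strands of the 250 bases before and 50 bases after each start in RefSeq (GRCm38.p6). Promoters were found for 53 of the 72 called genes and for 11644 of the tested genes. The cAMP response element TGACGTCA was found in 1 of 43 promoters of the genes called lower (2.33%), against 2.89% of the promoters of all tested genes, and in 20.8% of those of the neuropeptide list. The CLEAR core TCACGTGA, named for its place in promoters of lysosomal genes, was found in 1 of 43 promoters of the genes called lower (2.33%), against 1.7% of those of all tested genes, and in 18.2% of those of the lysosome list. With 1 promoter each, these shares cannot be told from those of all tested genes. Shares of all 32851 promoters were 1.79% for the cAMP element and 0.974% for the CLEAR core. Among the 62 promoters of all called genes, the sterol core CACCCCAC was in 3.23%, against 3.04% of those of all tested genes. The ER stress element was in 0%, against 0.121%, and the CCAAT box in 27.4%, against 37.2%. The 4 promoters shown, with the matching letters in capitals, are those of the lower genes Clstn3 and Slc35a5, which hold a match, and an example from each list. A match is a description of letters and no evidence of binding. Clstn3 is at chr6:124464735-124465034 and Slc35a5 at chr16:45158624-45158923, both on the minus strand, Chgb at chr2:132781392-132781691 on the plus strand and Ctsd at chr7:142387778-142388077 on the minus strand.
Clstn3: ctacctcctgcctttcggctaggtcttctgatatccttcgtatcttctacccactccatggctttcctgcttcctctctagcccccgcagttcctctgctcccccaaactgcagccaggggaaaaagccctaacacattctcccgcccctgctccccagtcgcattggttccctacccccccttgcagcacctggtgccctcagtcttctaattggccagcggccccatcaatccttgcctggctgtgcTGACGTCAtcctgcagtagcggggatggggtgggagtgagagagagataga
Chgb: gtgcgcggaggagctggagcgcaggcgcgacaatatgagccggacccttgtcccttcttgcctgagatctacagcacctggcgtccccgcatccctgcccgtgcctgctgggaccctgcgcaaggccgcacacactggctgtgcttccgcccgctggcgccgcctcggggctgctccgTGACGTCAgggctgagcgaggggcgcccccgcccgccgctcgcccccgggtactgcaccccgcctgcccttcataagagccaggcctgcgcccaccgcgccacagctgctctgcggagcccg
Slc35a5: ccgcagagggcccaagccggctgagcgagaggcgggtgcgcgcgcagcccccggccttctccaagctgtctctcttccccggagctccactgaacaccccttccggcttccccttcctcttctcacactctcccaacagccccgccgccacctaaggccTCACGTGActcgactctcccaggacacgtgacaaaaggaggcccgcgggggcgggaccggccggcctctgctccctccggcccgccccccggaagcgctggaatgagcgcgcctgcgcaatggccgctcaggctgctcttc
Ctsd: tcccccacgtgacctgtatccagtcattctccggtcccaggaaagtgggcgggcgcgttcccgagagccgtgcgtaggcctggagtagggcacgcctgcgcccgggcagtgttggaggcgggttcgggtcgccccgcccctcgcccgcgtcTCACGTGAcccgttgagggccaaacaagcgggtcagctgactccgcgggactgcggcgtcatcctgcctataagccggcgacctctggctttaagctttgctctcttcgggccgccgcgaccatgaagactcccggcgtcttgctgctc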

How the data were processed

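RNA of NeuN-sorted hippocampal nuclei was measured in 9 libraries, 3 a group. The authors prepared libraries with SMART-Seq v4, sequenced 50-base single reads, mapped them to mm10 with STAR and counted reads on exons with featureCounts, whose versions are not given in the sources used here. Their differential tests used DESeq2. The deposited values are whole counts per gene, not normalized, with 9342945 to 16376922 counts a library. Groups came from the labels, and the paper's methods gave the tap water of the controls. Labels and methods differ in the number of mice a group, and whether a library is 1 mouse is not stated in the labels. If replicates are technical, p-values measure only the spread between these samples. The members and lists were chosen with earlier results of these data known.

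Of 48709 genes, 48349 matched GENCODE M21, and 30820 had a count. Tests used edgeR 4.0.16 in R 4.3.3: its filter over the 3 groups (minimum count 10, minimum total 15) kept 17361 genes, sizes were scaled by TMM, all 9 libraries entered a robust quasi-likelihood fit, and p-values were adjusted by Benjamini-Hochberg at 0.05. SE came from the F statistic. A two-sided exact permutation test on log2 CPM (pseudocount 0.5) gave 0.1 for the called genes, the smallest p that 3 against 3 allows. The scripts were tested on simulated counts. In these, 100 genes were changed by a log2 fold change of 1 and 100 by 2, in either direction. At an adjusted p under 0.05, false calls made up 6.86% of the calls of edgeR and 17.8% of those of DESeq2. Both shares exceed the threshold, that of DESeq2 by more. The counts were a single draw with dispersions estimated by edgeR, so these shares cannot rank the tools on the real data. In a contrast without change, edgeR called 0 genes and DESeq2 3. Named genes were, among those called, the 12 that rose most and the 12 that fell most, called members of lists, genes the study names, and members with the highest mean count of lists tied to caffeine, dentate, progenitor, ER and immediate early genes. The other called genes were named after their values were seen. Alternatives were DESeq2 1.42.0, limma-voom (limma 3.58.1), other scaling and filters, 2 groups only, lane, a replicate block, GC and length correction, thinning and leaving out each library. Intervals of Mb and promoter searches are descriptions without a test. Figures were drawn with matplotlib. A withheld item is not reported here.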

Additional observations from a re-analysis of the deposited data

How the results depend on the processing

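Against the 72 genes called between caffeine-treated Tg4-42 and WT mice, DESeq2 called 568, limma-voom with quality weights 125, the fit corrected for GC content 153 and the fit with no filter on low counts 860. DESeq2 left 4041 adjusted p-values as NA, and 2543 genes had an unadjusted p under 0.05 in both tools, out of 2679 in each. Without the filter the median prior degrees of freedom was infinite, compared with 9.73 with it, over 30820 instead of 17361 genes. A term for the lane lowered the count to 42, and 17 were called in the lane 6 libraries only, an alternative chosen after seeing the data that has 2 libraries a group. Leaving out 1 library at a time gave 16 to 287 genes, with 42, 23 and 28 without WT replicates 1, 2 and 3, and 287, 59 and 16 without caffeine-treated replicates 1, 2 and 3. The cause of these differences was not tested. RLE scaling gave 70, a filter at a mean of 50 counts 84, the 2 compared groups alone 106, correction for transcript length 62, thinning to the smallest total 93 and the version 4 quasi-likelihood method, also added after seeing the data, 89. Library numbers did not pair the samples, since the correlations of same-numbered deviations were -0.17, 0.01 and -0.11, and a replicate block by that number gave 82 genes. The sign was kept in 72 of 72 called genes, which is no sign of stability since their libraries do not overlap, and 15 were called in all 6 fits that left out a library, and 3 were called in none of these. The medians of the dentate, cholesterol, lysosome and neuropeptide lists moved by less than the spread between replicates in every alternative run.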
